A study of Heterocephalus glaber with 23 samples.

Results

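The 36 genes described here encode the antioxidant enzymes of the cell and the NRF2 pathway that controls many of them. They were taken as the rows of the count table that carry the symbols of superoxide dismutases, catalase, glutathione peroxidases, peroxiredoxins, the thioredoxin and glutathione systems, NRF2 with its repressor KEAP1, and the quinone, heme and methionine sulfoxide enzymes. All 36 of 36 symbols were found among the 16339 rows, and all 36 passed the filter on low counts that left 12306 genes for the tests. The samples were livers of 23 naked mole-rats (Heterocephalus glaber), a long-lived rodent whose colonies hold a breeding pair and many non-reproducing workers.

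The groups were 6 female breeders, 5 female non-breeders, 6 male breeders and 6 male non-breeders. Mean age was 3.52 ± 0.183 years in female breeders (SD, n = 6), 3.42 ± 0.669 years in female non-breeders (SD, n = 5), 3.52 ± 0.571 years in male breeders (SD, n = 6) and 3.42 ± 0.564 years in male non-breeders (SD, n = 6). Breeders were former workers that had been taken out of their colony and paired with an unrelated animal, and non-breeders were litter mates that stayed behind as workers, so housing and colony cannot be told apart from status. Females were sampled well after their last pregnancy, and male breeders were sampled earlier after a birth than their partners were. All female breeders and 3 of 6 male breeders were sequenced in a shorter read length class than the other libraries, so in females this class cannot be told apart from status either. Only male breeders held both classes, 3 libraries each. Fits with the class as a covariate therefore took its effect from male breeders alone and carried it over to females.

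Superoxide dismutases turn superoxide into hydrogen peroxide, which catalase, glutathione peroxidases and peroxiredoxins then remove. Catalase splits it without an electron donor, while the peroxidases use electrons that are passed on mainly by glutathione and thioredoxin. The transcription factor NRF2 (gene NFE2L2) raises many of these enzymes. In resting cells KEAP1 marks NRF2 for degradation, and oxidants or electrophiles that modify KEAP1 release it. NRF2 is therefore regulated largely at the protein level, which mRNA counts do not measure.

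Library totals ran between 11826665 and 22969366 counts. Levels are given in CPM, the standard unit that scales counts to library size, here with sizes adjusted by the TMM method. They are compared between animals and not between genes, since gene lengths were not used here. The tissue label was checked with 10 hepatocyte markers, which summed to between 106464 and 227719 CPM in single libraries. Male non-breeder 3, male breeder 5 and female breeder 6 lay away from the other 20 libraries along principal component 1 (26.4% of variance). In bulk liver, fewer cells of a type and less RNA per cell cannot be told apart. Of the 36 genes, 34 had 10 or more counts in every library, and the lowest count of any of them was 3.

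The main result on reproductive status is that differences between breeders and non-breeders were small for most of the antioxidant set. The largest were those of TXNIP and TXNRD1, genes of the thioredoxin system, and neither passed the adjusted threshold. In females (comparison NMR-F-BvN), 0 of 36 genes passed an adjusted p of 0.05 in edgeR's quasi-likelihood test with Benjamini-Hochberg adjustment, against a background of 0% of the 12306 genes tested. At an unadjusted p under 0.05, 1 of 36 genes (2.78%) passed in females, against 3.70% of all genes. In males (NMR-M-BvN) these counts were 0 of 36, against 0% of all genes, and 1 of 36 (2.78%), against 5.88% of all genes. With both sexes averaged (NMR-BvN), 0 of 36 passed the adjusted threshold, against 0% of all genes, and 3 of 36 (8.33%) passed the unadjusted one, all lower in breeders, against 7.94% of all genes in either direction. DESeq2 and limma voom also gave 0 of 36 past their adjusted threshold in each of these comparisons. The CPM ranges of breeders and non-breeders overlapped for every member in both sexes, while 0.309% of all genes in females and 0.431% in males did not overlap.

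The members' median log2 difference between breeders and non-breeders was -0.01 in females and 0.02 in males, beside 0.01 and -0.02 for all genes tested. In females 18 of 36 genes had a log2 difference above 0 and 18 below, and in males 21 were above and 15 below. The typical size of a difference, the median of its absolute log2 value, was 0.0856 in females and 0.113 in males for the members, beside 0.135 and 0.131 for all genes. The summed level of the 36 genes was 6934 ± 774 CPM in female breeders (SD, n = 6), against 7050.2 ± 564 CPM in female non-breeders (SD, n = 5). In males it was 7529.5 ± 764 CPM in breeders, against 7557 ± 716 CPM in non-breeders (SD, n = 6 each). Markers of other cell types also differed on average with status, 0 of them past the adjusted threshold in edgeR. In male breeders 10 of 10 stellate cell and fibroblast markers, 10 of 10 endothelial, 5 of 5 cholangiocyte, 11 of 12 macrophage and 7 of 8 neutrophil markers tested were lower on average than in male non-breeders. So were 8 of 10 hepatocyte (median log2 difference -0.04), 4 of 6 lymphocyte (median -0.66) and 6 of 8 erythroid markers (median -0.17). Of the striated muscle markers 3 of 4 were higher. The stellate and fibroblast markers summed to 83.5 to 125 CPM in male breeders, against 118 to 194 CPM in male non-breeders. In female breeders 8 of 8 erythroid markers (median log2 difference -0.68) and 7 of 8 neutrophil markers (median -0.20) were lower on average than in female non-breeders, and 4 of 4 striated muscle markers (median 1.99) were higher. Lower on average there were also 7 of 10 hepatocyte, 7 of 10 stellate cell and fibroblast, 7 of 12 macrophage and 6 of 10 endothelial markers. Of the lymphocyte markers 3 of 6 were lower, and of the cholangiocyte markers 2 of 5. The erythroid markers summed to 106 to 524.8 CPM in female breeders, against 255 to 615 CPM in female non-breeders. The muscle markers summed to 143 CPM in female breeder 2 and 123 CPM in female breeder 6, and to at most 8.03 CPM in each of the other libraries. The part of these cell types in the members' differences was not tested.

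**Figure D1:**
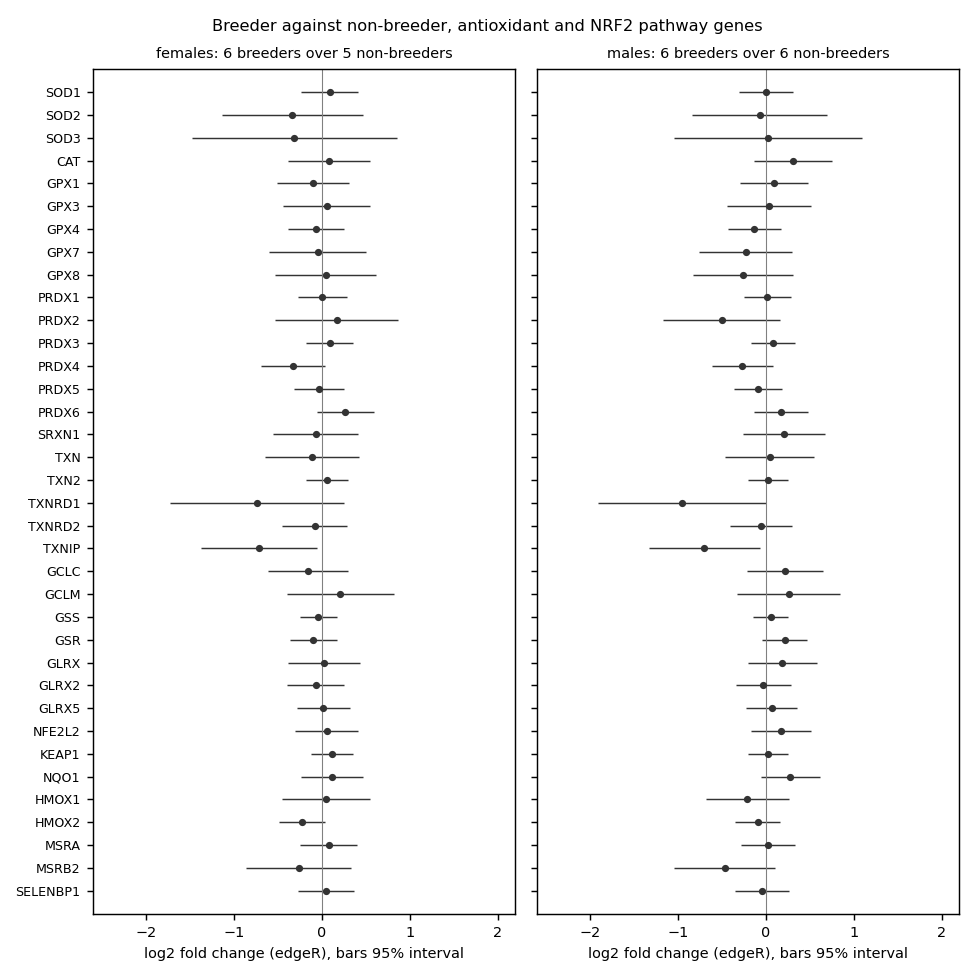
Log2 fold change of breeders over non-breeders with its 95% interval (x axis) for each of the 36 genes (y axis), females on the left and males on the right. TXNIP is the gene whose interval lies below 0 in both sexes (-0.72 in females and -0.70 in males), and the intervals of all others cross 0.

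TXNIP, which binds thioredoxin and blocks its reducing activity and is known to be induced by glucose, had the smallest p of the set in each comparison of status. Female breeders had 126 CPM at the lowest, 173 at the median and 297 at the highest, and the 5 female non-breeders had 486, 416, 318, 208 and 117 CPM. Male breeders had 92.8 CPM at the lowest, 169 at the median and 218 at the highest, against 142, 258 and 449 CPM in male non-breeders. All 6 female breeders lay below the mean of female non-breeders and all 6 male breeders below that of male non-breeders, but the ranges overlapped: 3 of 5 female non-breeders and 4 of 6 male non-breeders lay above every breeder of their sex.

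The log2 fold change of TXNIP was -0.72 ± 0.32 in females (SE; fold 0.609, unadjusted p = 0.0348, adjusted p = 1.00 in edgeR's quasi-likelihood test). In males it was -0.70 ± 0.31 (SE; fold 0.615, unadjusted p = 0.0320, edgeR adjusted p = 0.800). Averaged over both sexes it was -0.71 ± 0.22 (SE; fold 0.612, 95% interval -1.17 to -0.25, unadjusted p = 0.00398, edgeR adjusted p = 0.348), with 11 of 12 breeders below the non-breeder mean. The difference of the 2 status effects was -0.02 ± 0.44 (SE, interval -0.93 to 0.90), so the data leave room for sizeable unlike effects in the sexes. None of these values passes the adjusted threshold. Within the longer read length class, which holds 3 male breeders and 6 male non-breeders, the male log2 difference was -0.88 (unadjusted p = 0.0448, edgeR). With the class as a covariate TXNIP stood at -1.05 in females (unadjusted p = 0.0676, edgeR) and -0.88 in males (unadjusted p = 0.0365, edgeR). Averaged over both sexes it then stood at -0.96 (unadjusted p = 0.0292, edgeR adjusted p = 0.999). In limma voom the female value was -0.63 (unadjusted p = 0.0728). Without the 3 libraries lying away from the rest the male value was -0.67 (unadjusted p = 0.0591, edgeR). Single libraries carry part of the TXNIP difference. The unadjusted edgeR p was 0.145 in females without female non-breeder 1, at a log2 difference of -0.49. It was 0.121 in males without male non-breeder 1, also at -0.49.

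TXNRD1, the cytosolic selenoprotein reductase that recharges thioredoxin and a classic NRF2 target, was spread unevenly across animals. Female breeders had 72.4 CPM at the lowest, 79.1 at the median and 99.7 at the highest, against 242, 238, 74.1, 60.5 and 69.5 CPM in the 5 female non-breeders. Male breeders had 49.3, 67.6 and 161 CPM at the lowest, median and highest, against 44.8, 107 and 336 CPM in male non-breeders. The medians over both sexes were nearly equal, 75.1 CPM for breeders and 74.1 CPM for non-breeders, and the group difference lay in a few animals. The widest gap by ratio between neighbouring libraries ran between 161 and 238 CPM, and the 4 libraries above it were all non-breeders, 2 of each sex, with 0 of 12 breeders above it. The gap was located in these same values, so this split describes them and is not a test.

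The log2 fold change of TXNRD1 over both sexes was -0.85 ± 0.33 (SE; fold 0.556, unadjusted p = 0.0184, edgeR adjusted p = 0.495), and -1.48 (unadjusted p = 0.0266, edgeR adjusted p = 0.999) with the read length class as a covariate. In females it was -0.74 ± 0.48 (SE, unadjusted p = 0.139, edgeR) and in males -0.95 ± 0.46 (SE, unadjusted p = 0.0507, edgeR). In males the value was -0.57 without male non-breeder 5 and -1.28 without male breeder 1, and within the longer read length class it was -1.42 (unadjusted p = 0.0598, edgeR). Over both sexes the unadjusted edgeR p was 0.0516 without female non-breeder 1 and 0.0517 without male non-breeder 5. The within-group SD of TXNRD1, 0.87 on the log2 scale, was the highest of the 36 genes. The other thioredoxin genes had smaller differences, none past the test: cytosolic thioredoxin TXN had a log2 difference of -0.03 ± 0.18, the mitochondrial reductase TXNRD2 -0.07 ± 0.12 and mitochondrial thioredoxin TXN2 0.04 ± 0.08 over both sexes (SE).

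**Figure D2:**
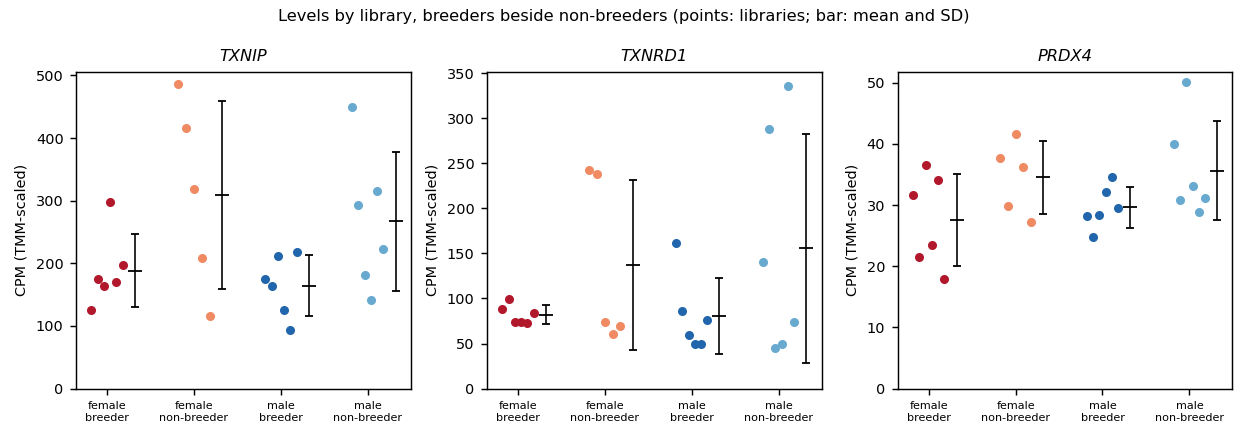
CPM (y axis) of TXNIP, TXNRD1 and PRDX4 in each library (points) by group (x axis, breeders left of non-breeders within each sex), with mean and SD as a bar. The 4 highest TXNRD1 libraries, at 238 CPM or more, are all non-breeders, and TXNIP ranges overlap in both sexes.

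Peroxiredoxins are abundant peroxidases, many of which use thioredoxin, and PRDX4 is the member that works in the endoplasmic reticulum. PRDX4 had 17.9 CPM at the lowest, 27.6 at the median and 36.5 at the highest in female breeders, against 37.8, 29.8, 41.6, 36.3 and 27.2 CPM in female non-breeders. In male breeders it had 24.8, 28.9 and 34.6 CPM, against 28.8, 32.1 and 50.2 CPM in male non-breeders. The groups overlapped in both sexes, and 11 of 12 breeders lay below the mean of the non-breeders. The log2 difference over both sexes was -0.30 ± 0.12 (SE; fold 0.814, unadjusted p = 0.0232, edgeR adjusted p = 0.529). It shrank to -0.12 (unadjusted p = 0.598, edgeR) with the read length class as a covariate, and was -0.24 (unadjusted p = 0.0502, edgeR) without male non-breeder 3. In females alone PRDX4 stood at -0.33 ± 0.18 (SE, unadjusted p = 0.0776, edgeR). With that covariate, whose effect was estimated in male breeders alone, it stood at -0.08 (unadjusted p = 0.784, edgeR).

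Differences of the other peroxiredoxins did not pass the test. PRDX1, the main cytosolic form, averaged 209 ± 27.1 CPM in female breeders and 208 ± 22.4 CPM in female non-breeders (SD, n = 6 and 5). In males it averaged 208 ± 29.3 CPM in breeders, against 206 ± 36.7 CPM in non-breeders (SD, n = 6 each), and its log2 difference over both sexes had an interval of -0.18 to 0.21. PRDX2, which is best known as an abundant red blood cell protein, was among the lowest counted rows, with 0.944 to 6.42 CPM over all libraries. Reads that mapped to several places had been discarded before counting, so its level is uncertain if near-identical copies exist in the genome. Its male log2 difference of -0.50 ± 0.32 (SE, unadjusted p = 0.133, edgeR) included the highest library, male non-breeder 3, which also had the highest sum of erythroid markers, 888 CPM, where the lowest library had 106 CPM. Across the 23 libraries, with group means removed, PRDX2 and the mean log2 level of the erythroid markers had a Pearson r of 0.43 (permutation p = 0.0327, 0.137 after Benjamini-Hochberg adjustment over 12 pairs) and a Spearman rho of 0.45 (permutation p = 0.0429, adjusted 0.172). Without the 2 libraries farthest from the median of the markers r was 0.40, within the longer read length class it was 0.72 (14 libraries) and within the shorter class 0.10 (9 libraries), a difference between classes that was not tested. The pair did not pass the adjusted threshold. PRDX6, a peroxidase that acts on phospholipids, had a log2 difference of 0.26 ± 0.16 in females and 0.17 ± 0.15 in males (SE), and all 6 female breeders lay above the female non-breeder mean without passing the test. The mitochondrial PRDX3 ranged over 159 to 256 CPM and PRDX5, found in mitochondria, peroxisomes and cytosol, over 46.4 to 85.7 CPM in all animals, with log2 differences of 0.08 ± 0.09 and -0.06 ± 0.09 over both sexes (SE).

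NRF2 itself and KEAP1 had small differences, and the intervals of both included 0. NFE2L2 averaged 88.2 ± 13.6 CPM in female breeders (SD, n = 6), against 84.9 ± 19.8 CPM in female non-breeders (SD, n = 5). In males it averaged 84.2 ± 14.7 CPM in breeders, against 74.8 ± 16.2 CPM in non-breeders (SD, n = 6 each). The groups overlapped throughout, and the log2 difference over both sexes was 0.11 ± 0.12 (SE, interval -0.14 to 0.36). KEAP1 averaged 98.0 ± 17.4 CPM in female breeders and 90.4 ± 12.9 CPM in female non-breeders (SD, n = 6 and 5), and 92.8 ± 8.65 CPM in male breeders and 91.5 ± 3.43 CPM in male non-breeders (SD, n = 6 each). Its log2 difference over both sexes was 0.07 ± 0.08 (SE, interval -0.10 to 0.23), and its within-group SD of 0.17 on the log2 scale was among the lowest of the set.

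Classic NRF2 targets likewise gave no difference past the test. NQO1, which reduces quinones, averaged 27.0 ± 4.85 CPM in female breeders and 24.9 ± 4.10 CPM in female non-breeders (SD, n = 6 and 5). In males NQO1 averaged 29.2 ± 4.88 CPM in breeders, against 24.2 ± 5.57 CPM in non-breeders (SD, n = 6 each), and over both sexes the log2 difference was 0.20 ± 0.12 (SE, unadjusted p = 0.111, edgeR). The male non-breeder means of NQO1, NFE2L2, GCLM and CAT all include male non-breeder 3, the lowest library of the series for each of them. HMOX1, the inducible enzyme that breaks down heme and is high in liver macrophages, had a log2 difference of -0.08 ± 0.17 (SE), while single animals ran between 113 and 342 CPM. HMOX2, the constitutive heme oxygenase, had 53.3 CPM at the lowest, 65.9 at the median and 80.7 at the highest in female breeders, against 87.1, 54.0, 78.4, 80.8 and 89.6 CPM in female non-breeders. Of the female non-breeders 3 lay above the highest female breeder and 1 near the lowest, and the log2 difference was -0.23 ± 0.13 (SE, unadjusted p = 0.0898, edgeR).

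Of the glutathione genes none passed the test for status. The 2 subunits of glutamate-cysteine ligase, which makes the first step of glutathione synthesis, had log2 differences over both sexes of 0.03 ± 0.15 for the catalytic GCLC and 0.23 ± 0.20 for the modifier GCLM (SE). GCLC averaged 67.5 ± 17.7 CPM in female breeders and 75.3 ± 13.9 CPM in female non-breeders (SD, n = 6 and 5), and 65.2 ± 15.7 CPM in male breeders and 56.3 ± 17.97 CPM in male non-breeders (SD, n = 6 each). GCLM averaged 17.0 ± 4.73 CPM in female breeders and 14.8 ± 5.57 CPM in female non-breeders (SD, n = 6 and 5), and 16.3 ± 2.26 CPM in male breeders and 13.7 ± 5.48 CPM in male non-breeders (SD, n = 6 each). Glutathione synthetase, GSS, varied least of the 36 genes, with a within-group SD of 0.14 on the log2 scale and levels of 28.8 to 42.3 CPM over all animals.

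Glutathione reductase, GSR, which regenerates glutathione with NADPH, had 131, 151 and 178 CPM at the lowest, median and highest in male breeders, against 105, 129.8 and 159 CPM in male non-breeders. The male log2 difference was 0.21 ± 0.12 (SE, unadjusted p = 0.0991, edgeR), and in females it was -0.10 ± 0.13 (SE). The difference between these 2 effects, -0.31 ± 0.18 (SE, unadjusted p = 0.0982, edgeR adjusted p = 1.00), had the smallest p of the set for the interaction of status and sex. For that interaction 0 of 36 genes passed either threshold, against 0% of all genes at the adjusted one and 1.85% at the unadjusted one. PRDX2 (0.67 ± 0.47) and GCLC (-0.37 ± 0.30) followed GSR (log2, SE), and the value of PRDX2 was 0.33 without male non-breeder 3. The glutaredoxins, small enzymes that reduce glutathione mixed disulfides, had ranges over all animals of 214 to 530.3 CPM for GLRX, 8.53 to 19.6 CPM for GLRX2 and 28.8 to 54.5 CPM for GLRX5.

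Among the enzymes at the front of the pathway, catalase (CAT), the peroxisomal enzyme that splits hydrogen peroxide, averaged 1593 ± 374 CPM in female breeders and 1506 ± 212 CPM in female non-breeders (SD, n = 6 and 5). In males it averaged 1763 ± 423 CPM in breeders, against 1424 ± 514 CPM in non-breeders (SD, n = 6 each), a log2 difference of 0.31 ± 0.22 (SE, unadjusted p = 0.168, edgeR). SOD2, the mitochondrial superoxide dismutase, averaged 160.2 ± 57.6 CPM in female breeders and 202 ± 34.1 CPM in female non-breeders (SD, n = 6 and 5). Male breeders averaged 154 ± 52.0 CPM of SOD2 and male non-breeders 162 ± 77.3 CPM (SD, n = 6 each). The interval of the SOD2 difference over both sexes, -0.76 to 0.35 on the log2 scale, was wide. SOD3, the extracellular form, was at 0.239 to 3.60 CPM, and its interval over both sexes was -0.94 to 0.64.

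Of the glutathione peroxidases, GPX1, the cytosolic selenoenzyme whose activity is known to be low in naked mole-rat liver compared with mouse, averaged 187 ± 30.6 CPM in female breeders and 201 ± 54.7 CPM in female non-breeders (SD, n = 6 and 5). Male breeders averaged 196 ± 36.7 CPM of GPX1 and male non-breeders 185 ± 47.2 CPM (SD, n = 6 each), and the interval of its log2 difference over both sexes was -0.29 to 0.28. GPX4, which protects membranes from lipid peroxidation and so from ferroptosis, averaged 158 ± 30.6 CPM in female breeders and 165 ± 16.3 CPM in female non-breeders (SD, n = 6 and 5). Male breeders averaged 177 ± 19.1 CPM of GPX4 and male non-breeders 194 ± 48.3 CPM (SD, n = 6 each). GPX7, which works in the endoplasmic reticulum, had 13.1 to 43.0 CPM over all animals and a log2 difference of -0.14 ± 0.18 over both sexes (SE). SELENBP1, a selenium-binding protein that oxidises methanethiol, had a log2 difference over both sexes of 0.00 ± 0.11 (SE), with 668 ± 171 CPM in female breeders and 646 ± 72.3 CPM in female non-breeders (SD, n = 6 and 5). In males it averaged 704 ± 67.1 CPM in breeders, against 725 ± 115 CPM in non-breeders (SD, n = 6 each). MSRB2, a mitochondrial methionine sulfoxide reductase, was lower on average in breeders of both sexes without passing the test, at -0.26 ± 0.29 in females and -0.47 ± 0.28 in males (log2, SE).

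Between the sexes the gene that stood out was SOD1, the cytosolic copper and zinc superoxide dismutase. It had 749.7, 787 and 921 CPM at the lowest, median and highest in female breeders, against 836, 1099 and 1232 CPM in male breeders. Among non-breeders the 5 females had 816, 773, 686, 859.8 and 679.8 CPM, against 747, 998 and 1587 CPM in males. Each of the 11 females lay below the mean of the males of her status, and 3 of 12 males lay at or below the highest female. The log2 difference of females and males was -0.39 ± 0.15 in breeders (NMR-B-FvM; SE, fold 0.763, unadjusted p = 0.0143, edgeR adjusted p = 0.732) and -0.48 ± 0.16 in non-breeders (NMR-N-FvM; SE, fold 0.718, unadjusted p = 0.00542, edgeR adjusted p = 0.856).

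In both comparisons of the sexes 0 of 36 genes passed the adjusted threshold, against 0.0488% of all genes in breeders and 0.0325% in non-breeders. The unadjusted threshold was passed by 1 of 36 genes (2.78%), SOD1, in each, against 5.89% of all genes in breeders and 5.15% in non-breeders. DESeq2 and limma voom gave 0 of 36 past their adjusted threshold in both. The members' median log2 difference was -0.05 in breeders and -0.02 in non-breeders, beside 0.02 and 0.00 for all genes.

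The sex difference averaged over both statuses was added after these SOD1 values had been seen. It was -0.43 ± 0.11 for SOD1 (SE; fold 0.740, 95% interval -0.66 to -0.21), where the 11 females averaged 789 ± 74.2 CPM and the 12 males 1062 ± 227 CPM (SD). The unadjusted p was 0.000492 and the adjusted p 0.209 in edgeR, 0.0952 in limma voom and 0.0224 in DESeq2, so the tools place it on different sides of the threshold. Without male non-breeder 3, the highest library, the log2 difference was -0.36 (unadjusted p = 0.000621, edgeR). Non-breeders were all in 1 read length class, and with the class as a covariate the breeder difference was -0.25 (unadjusted p = 0.178, edgeR) and the averaged one -0.36 (unadjusted p = 0.00511, edgeR). The sex difference of SOD1 in breeders and that in non-breeders were not told apart, with an interaction of 0.09 ± 0.21 (log2, SE).

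In that averaged comparison 0 of 36 genes passed the adjusted threshold in edgeR, against 0.0650% of all genes, and 3 of 36 (8.33%) passed the unadjusted one, against 10.4% of all genes. Besides SOD1 these were MSRA and SRXN1. MSRA, which repairs oxidised methionine, had 46.0, 61.7 and 76.8 CPM at the lowest, median and highest in female breeders, against 63.0, 71.9 and 85.2 CPM in male breeders. Among non-breeders it had 67.9, 46.1, 63.4, 66.9 and 49.7 CPM in females, against 53.7, 65.3 and 98.4 CPM in males. The ranges overlapped, and the averaged log2 difference was -0.25 ± 0.11 (SE; unadjusted p = 0.0282, edgeR adjusted p = 0.429), with an unadjusted edgeR p of 0.0660 and a value of -0.20 without male non-breeder 6.

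SRXN1, sulfiredoxin, restores over-oxidised peroxiredoxins and is an NRF2 target. It had 16.2, 24.6 and 45.0 CPM at the lowest, median and highest in female breeders, against 15.8, 23.1 and 29.1 CPM in male breeders. Female non-breeders had 26.0, 34.8, 25.6, 20.4 and 31.5 CPM, against 13.1, 20.6 and 25.4 CPM in male non-breeders. Among non-breeders 4 of 5 females lay above the highest male. The log2 difference was 0.48 ± 0.23 in non-breeders (SE, unadjusted p = 0.0512, edgeR) and 0.34 ± 0.16 averaged over both statuses (SE; unadjusted p = 0.0450, edgeR adjusted p = 0.471). Without female breeder 3, the highest library, the averaged value was 0.23 (unadjusted p = 0.120, edgeR). GCLC was also higher on average in female than in male non-breeders, by 0.42 ± 0.22 (log2, SE, unadjusted p = 0.0657, edgeR), and GSR lower in female than in male breeders, at -0.22 ± 0.12 (log2, SE, unadjusted p = 0.0822, edgeR), or -0.14 (unadjusted p = 0.228, edgeR) without female breeder 2.

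**Figure D3:**
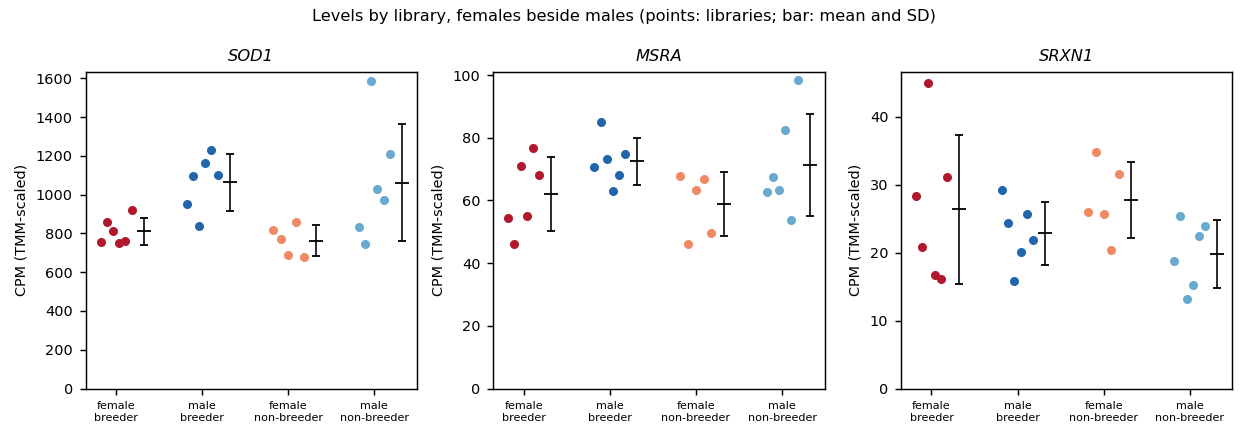
CPM (y axis) of SOD1, MSRA and SRXN1 in each library (points) by group (x axis, females left of males within each status), with mean and SD as a bar. SOD1 stays at or below 921 CPM in every female, while 9 of 12 males lie above that level.

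GPX8, a peroxidase of the endoplasmic reticulum, followed markers of stellate cells and fibroblasts. It had 1.01, 1.40 and 2.33 CPM at the lowest, median and highest in female breeders, against 0.498, 0.991 and 1.45 CPM in male breeders, and the log2 difference was 0.54 ± 0.27 (SE, unadjusted p = 0.0598, edgeR adjusted p = 0.859). It was 0.87 with the read length class as a covariate (unadjusted p = 0.0173, edgeR adjusted p = 1.00) and 0.69 without the 3 libraries lying away from the rest (unadjusted p = 0.0339, edgeR adjusted p = 0.452). In limma voom it was 0.63 (unadjusted p = 0.0381, adjusted p = 0.476), and without female breeder 3 it was 0.37 (unadjusted p = 0.195, edgeR). Markers of several other cell types were higher on average in female than in male breeders: 10 of 10 stellate cell and fibroblast, 12 of 12 macrophage and 10 of 10 endothelial markers. So were 7 of 8 neutrophil, 5 of 6 lymphocyte, 3 of 5 cholangiocyte and 3 of 4 striated muscle markers, while 8 of 8 erythroid and 6 of 10 hepatocyte markers were lower. The median log2 difference was largest for striated muscle (1.55), followed by stellate and fibroblast markers (0.62). It was 0.31 for neutrophil and cholangiocyte, 0.30 for lymphocyte, 0.29 for macrophage, 0.17 for endothelial, -0.04 for hepatocyte and -0.31 for erythroid markers. The stellate and fibroblast markers had a summed level of 110.3 to 296 CPM in female breeders and 83.5 to 125 CPM in male breeders. Across the 23 libraries, with group means removed, GPX8 followed the mean log2 level of these markers with a Pearson r of 0.68 (permutation p = 0.00051, 0.00612 after Benjamini-Hochberg adjustment over 12 pairs) and a Spearman rho of 0.70 (permutation p = 0.00086, adjusted 0.0103). Without the 2 libraries farthest from the median of the markers r was 0.54, within the shorter read length class it was 0.70 (9 libraries), within the longer class 0.68 (14 libraries), and over the 20 libraries without those lying away 0.74. GPX8 was not paired with the markers of any other cell type, and the part of any of these cell types in its sex difference was not tested.

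**Figure D4:**
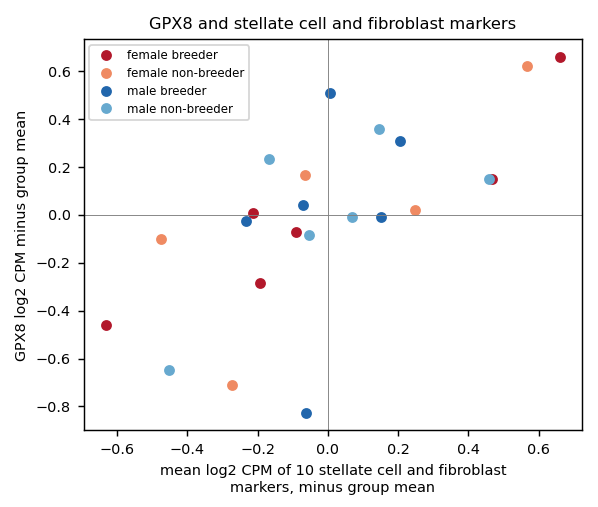
Log2 CPM of GPX8 (y axis) against the mean log2 CPM of 10 stellate cell and fibroblast markers (x axis), each minus its group mean, 1 point per library and coloured by group. Libraries with more marker RNA had more GPX8 RNA (r = 0.68 over 23 libraries).

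The 11 other pairs examined in the same way did not pass the adjusted threshold. NFE2L2 and KEAP1 ran in opposite directions, with a Pearson r of -0.40 (permutation p = 0.0461, adjusted 0.138) and a Spearman rho of -0.53 (permutation p = 0.0188, adjusted 0.113), and r was -0.46 without the 2 libraries farthest from the median of NFE2L2. NFE2L2 and its target GCLM had r = 0.60 (permutation p = 0.0343, adjusted 0.137) and rho = 0.33 (permutation p = 0.167, adjusted 0.442), but r was 0.19 without the 2 farthest libraries, so that relation rests on them. For NFE2L2 and NQO1 r was 0.40 (permutation p = 0.108, adjusted 0.188) and -0.02 without those 2 libraries, with rho = 0.26 (permutation p = 0.258, adjusted 0.442). With its remaining partners NFE2L2 had r = 0.38 (SRXN1), 0.19 (TXNRD1), -0.26 (GCLC) and -0.37 (HMOX1). GCLC and GCLM, the subunits of 1 enzyme, had r = -0.14 (permutation p = 0.642, adjusted 0.700) and rho = -0.08 (permutation p = 0.720, adjusted 0.864). For HMOX1 and the macrophage markers r was -0.02, and for SOD3 and the stellate and fibroblast markers 0.16.

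The spread between animals of a group was wide for a few of the genes. The median within-group SD of the 36 genes was 0.305 on the log2 scale, beside 0.356 for all genes tested. Of the members, 15 of 36 lay above that median of all genes. This comparison did not allow for level. Against genes of like level, the percentile of a member's SD was higher than against all genes, except for SOD3, PRDX2 and GPX8. It rose from 64.9 to 84.2 for TXN and from 38.5 to 60.6 for NFE2L2, and fell from 62.0 to 21.2 for GPX8. The lower median therefore does not show that the set varied less than genes of like level. TXNRD1 (0.87), SOD2 (0.84) and SOD3 (0.84) varied most, and GSS (0.14), KEAP1 (0.17) and TXN2 (0.18) least. Male non-breeder 3 held the lowest or the highest value of all 23 libraries for 18 of the 36 genes, 10 lowest and 8 highest. The share of all genes at an extreme in this animal was not counted. Its departure was not particular to the set: the median absolute deviation from the group mean was 0.435 log2 units for the members, beside 0.479 for all genes tested. SOD2 was at 17.6 CPM in that animal, 68.3 CPM in male breeder 5 and 82.7 CPM in female breeder 6, and between 120.3 and 259.5 CPM in the other 20 libraries.

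In the same animal NFE2L2 (44.1 CPM), GCLM (3.34 CPM), NQO1 (14.3 CPM), CAT (699 CPM), PRDX1 (141 CPM) and GPX1 (103 CPM) were at their lowest over the 23 libraries. TXN (87.0 CPM), SOD1 (1587 CPM), PRDX4 (50.2 CPM), GPX4 (273 CPM) and GLRX (530.3 CPM) were at their highest there. Its marker sums for erythroid cells (888 CPM), neutrophils (285 CPM) and cholangiocytes (358 CPM) were also the highest of the series, and their part in these levels was not tested.

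**Figure D5:**
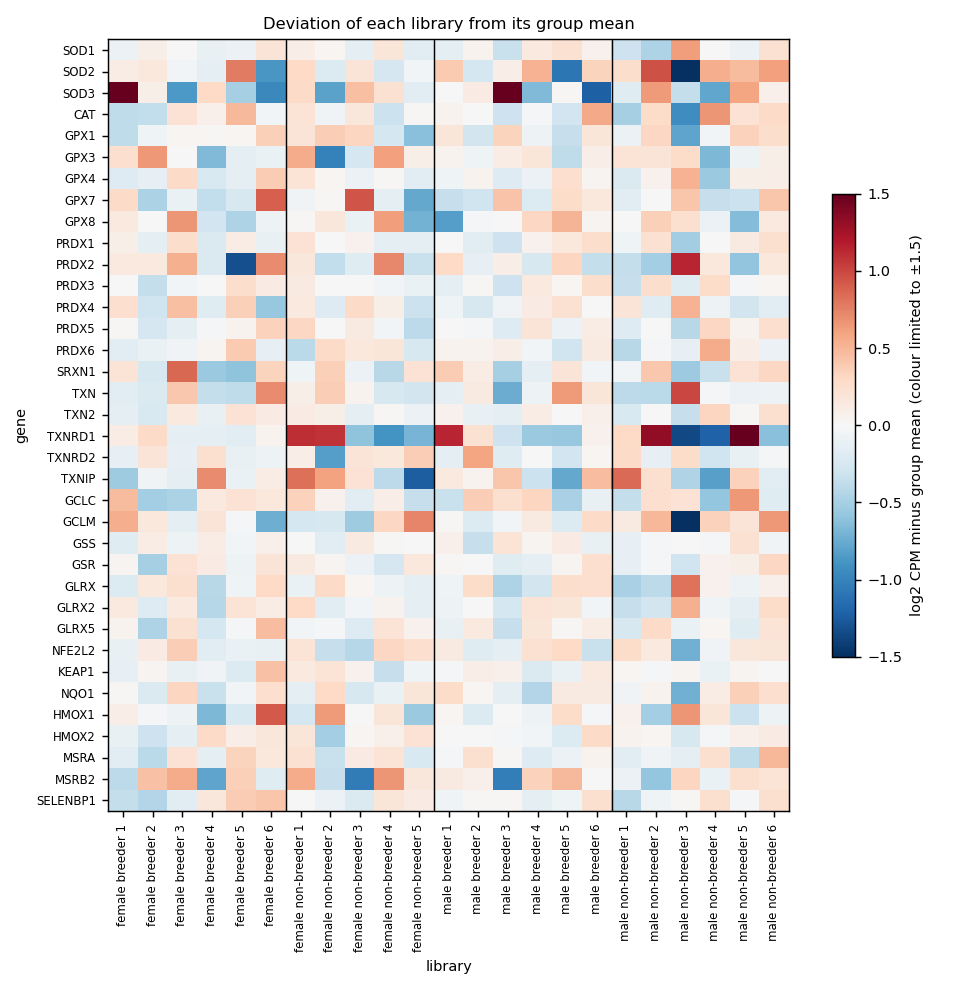
Log2 CPM minus the group mean for each gene (rows) and library (columns, grouped as female breeders, female non-breeders, male breeders and male non-breeders), with the colour limited to ±1.5. Male non-breeder 3 departs from its group in most rows, and TXNRD1 and SOD2 show the strongest contrasts between animals.

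Age, which ran between 2.4 and 4.1 years, was fitted as a slope beside the group means. In edgeR 0 of 36 genes passed the adjusted threshold, against 0% of all genes, and 2 of 36 (5.56%) passed the unadjusted one, both lower in older animals, against 8.02% of all genes in either direction. GPX1 had a slope of -0.31 ± 0.13 log2 units per year (SE; unadjusted p = 0.0293, edgeR adjusted p = 0.580), and the slope was -0.22 (unadjusted p = 0.0877, edgeR) without male non-breeder 3, the lowest GPX1 library, and -0.17 without the 3 libraries lying away from the rest. MSRA had a slope of -0.24 ± 0.10 (SE; unadjusted p = 0.0332, edgeR adjusted p = 0.583), and -0.18 (unadjusted p = 0.109, edgeR) without male non-breeder 6. GPX3, a secreted glutathione peroxidase, followed at -0.33 ± 0.16 (SE, unadjusted p = 0.0560, edgeR), and at -0.21 (unadjusted p = 0.168, edgeR) without female non-breeder 2. The members' median slope was -0.10 per year, with 10 of 36 above 0, beside 0.01 for all genes, with 6295 of 12306 above 0. The oldest animals, male non-breeder 3 and male breeder 5 at 4.1 years, were among the 3 libraries lying away from the rest. Age and the departure of these libraries therefore coincide in part. Without those 3 libraries the slopes of MSRA and GPX3 were -0.24 and -0.43.

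The wider pathway gave few further differences between breeders and non-breeders averaged over both sexes, and 0 of these genes passed an adjusted p of 0.05 in edgeR. An unadjusted p under 0.05 was reached by 16.7% of the 12 tested NRF2 regulators and partners, 6.67% of 30 other NRF2 targets, 16.7% of 24 other redox genes and 13.3% of 15 selenoprotein genes, against 7.94% of all genes in either direction, and at these list sizes each share rests on 2 to 4 genes. Of the regulators and partners, 2 had a positive log2 difference at an unadjusted p under 0.05 and 0 a negative one: the acetyltransferase EP300 (0.34 ± 0.13, unadjusted p = 0.0131, edgeR) and CHD6 (0.25 ± 0.11, unadjusted p = 0.0393, edgeR). Of the other NRF2 targets, 2 were positive and 0 negative: the biliverdin reductase BLVRB (0.19 ± 0.08, unadjusted p = 0.0244, edgeR) and OSGIN1 (0.56 ± 0.24, unadjusted p = 0.0276, edgeR). Of the other redox genes, 1 was positive and 3 were negative. The smallest p there belonged to the metallothionein MT3 (-1.89 ± 0.47, unadjusted p = 0.000585, edgeR adjusted p = 0.263), which is a very low row at 0.131 ± 0.0894 CPM in female breeders, 1.08 ± 1.21 CPM in female non-breeders, 0.443 ± 0.309 CPM in male breeders and 0.790 ± 0.590 CPM in male non-breeders (SD). Of 15 genes of selenoprotein synthesis and other selenoproteins, 1 was positive, SEPW1 (0.23 ± 0.08, unadjusted p = 0.00978, edgeR), and 1 negative, SELM (-0.47 ± 0.14, unadjusted p = 0.00293, edgeR adjusted p = 0.343). The medians of the 4 lists were -0.02, 0.02, -0.04 and -0.01 on the log2 scale.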

How the data were processed

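Liver poly(A) RNA of 23 animals was sequenced single-end from libraries without strand information. The authors aligned reads with STAR 2.4.1d (submitters' processing notes), dropped multi-mapping reads and ran HTSeq against a transcript catalogue assembled for the species. The deposited table holds raw, not normalized, counts. Of its 16339 rows, 25 bear a spreadsheet date for a symbol. They were tested with the rest but go unnamed.

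Counts were tested in R 4.3.3 with edgeR 4.0.16 (filterByExpr with minimum count 10 and minimum total 15, TMM, robust quasi-likelihood F-test, two-sided, 1 fit with 4 group means, Benjamini-Hochberg adjustment over 12306 genes, threshold 0.05). The SE was derived from the log2 fold change and F. Intervals are at 95%. Log2 CPM used a prior count of 2. Relations across libraries used 100000 permutations within groups. The scripts were tested on simulated data. Groups come from the labels, which give no litters, so animals were treated as independent. No 2 libraries of a group agreed within sampling noise (lowest chi-square for each degree of freedom 30.9 over 55 pairs). The read length class comes from the study's sample list.

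The 36 genes and the other lists were chosen with earlier results of these data known. Per comparison, genes with an unadjusted p under 0.05, or the 3 of smallest p, are described, beside a set core of 17 genes. Others, such as HMOX2, PRDX6 and MSRB2, are named to account for the set. Alternatives were DESeq2 1.42.0 (also its size factors alone), limma 3.58.1 voom with quality weights, no low count filter, age or read length class as a covariate, fewer libraries and leaving out each library.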

Additional observations from a re-analysis of the deposited data

Results flagged for a closer look

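Over 144 groups of 5 or 6 libraries, 10 held a library set off from the rest of its group by Dixon's criterion, and chance alone gives about 1 in 20 groups. In male non-breeder 3, the gap was downward for GCLM (3.34 CPM, next value 13.3), NFE2L2 (44.1 CPM, next 70.1) and SOD2 (17.6 CPM, next 152) and upward for TXN (87.0 CPM, next 42.6). The other 6 lay in other animals. GSS was high in male non-breeder 5 (41.5 CPM, next 35.3). HMOX2 was low in female non-breeder 2 (54.0 CPM, next 78.4), and so was TXNRD2 in the same animal (28.6 CPM, next 54.6). MSRB2 was low in male breeder 3 (332 CPM, next 685). PRDX6 was high in female breeder 5 (680.3 CPM, next 533). TXNRD2 was high in male breeder 2 (81.2 CPM, next 54.6).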

How the results depend on the processing

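Under every alternative run the members' median log2 difference, or slope for age, moved by less than 0.0972 from its value in the report. That limit is the SD of the members' median between replicates and is larger than the status medians, so it is a loose one. Leaving out 1 library gave status medians of -0.08 to 0.04 in females, -0.02 to 0.03 in males and -0.03 to 0.02 over both, on either side of 0. No named gene changed direction. With both statuses averaged, SOD1 was the 1 member past the adjusted threshold between the sexes in DESeq2, and 0 members passed in each other setting and comparison run. Counts of members with an unadjusted p under 0.05 moved most. They became 0 in females with limma voom, and in males 2 with the read length class as a covariate, 2 with DESeq2 and 3 with limma voom. Averaged over both sexes, limma voom gave 5. Between sexes in breeders the read length class, limma voom and leaving out the 3 libraries lying away from the rest each gave 2. In non-breeders no filter, DESeq2 and a fit on the 2 groups alone each gave 2, and averaged over both statuses limma voom gave 5. The age slope gave 1 without those 3 libraries. Leaving out each library in turn gave 0 to 2 for status in females, 0 to 4 in males and 2 to 4 over both, 1 to 2 for sex in breeders, 1 to 4 in non-breeders and 1 to 4 over both, 0 to 1 for the interaction and 1 to 3 for age. The cause of these moves was not tested. A fit on the groups compared alone is the same fit where all 4 groups enter. No paired analysis was possible because replicate numbers follow accession order and pair no animals. At under 5 CPM, SOD3, GPX8 and PRDX2 are limited by counting error.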
